A study of Mus musculus with 2 samples.

Results

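A set of 7 genes of glucose entry into the fat cell were followed in 3T3-L1 adipocytes grown without DF or in its presence; DF is a herbal mixture that its submitters call anti-obesity. They are the transporter genes Slc2a1, Slc2a3, Slc2a4 and Slc2a8 and the hexokinase genes Hk1, Hk2 and Hk3, 7 of the 24421 genes listed. They were picked by name, with earlier results from these libraries known, so their values are a description. The control group is 1 library of adipocytes that received no DF, and the DF group is 1 library of adipocytes that had DF (DF-GA70 in its title) in the medium up to harvest. Both come from 3T3-L1, a mouse preadipocyte line labelled with a C57BL/6 strain background, at passages 10 to 13. In both groups, 2 days after confluence, fat-cell formation was induced for 2 days with insulin (1 µg/mL), dexamethasone (0.25 µM) and the phosphodiesterase inhibitor IBMX (0.5 mM), and insulin alone was kept afterwards. The sources used here give neither the DF dose nor the harvest day. With 1 library per group there is no replicate error, no test was run, and a difference between the libraries cannot be told apart from ordinary variation between cultures.

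Glucose crosses the cell membrane through facilitative transporters of the SLC2 family and is trapped inside when a hexokinase phosphorylates it. GLUT4, made from Slc2a4, is held in intracellular vesicles and is moved to the surface by insulin in fat and muscle, while GLUT1, made from Slc2a1, resides largely at the surface and carries basal uptake. Hexokinase II, made from Hk2, is the main isoform of insulin-responsive tissues, and hexokinase I is found in most cells. These are messenger RNA values only, so they do not show transporter position, enzyme activity or glucose uptake.

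The same isoforms led in both libraries. Hk2 was the most abundant of the 7 transcripts, followed by Slc2a4, Hk1, Slc2a1 and Slc2a8, and this order was identical with and without DF. Slc2a3 and Hk3 were at or next to 0. The values are on the deposited log2 scale, and linear values are 2 to the power of them. The library protocol reads transcript ends, so levels were compared between genes without division by length. Across genes with a value above 0 and an annotated coding transcript, the rank correlation of level with transcript length was 0.01 in the control library (11794 genes) and -0.01 in the DF library (11225 genes). No replicate spread exists against which neighbours in the order could be judged. The closest pair, Hk1 and Slc2a1, lay 0.50 log2 units apart in the control and 0.64 with DF.

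**Figure D1:**
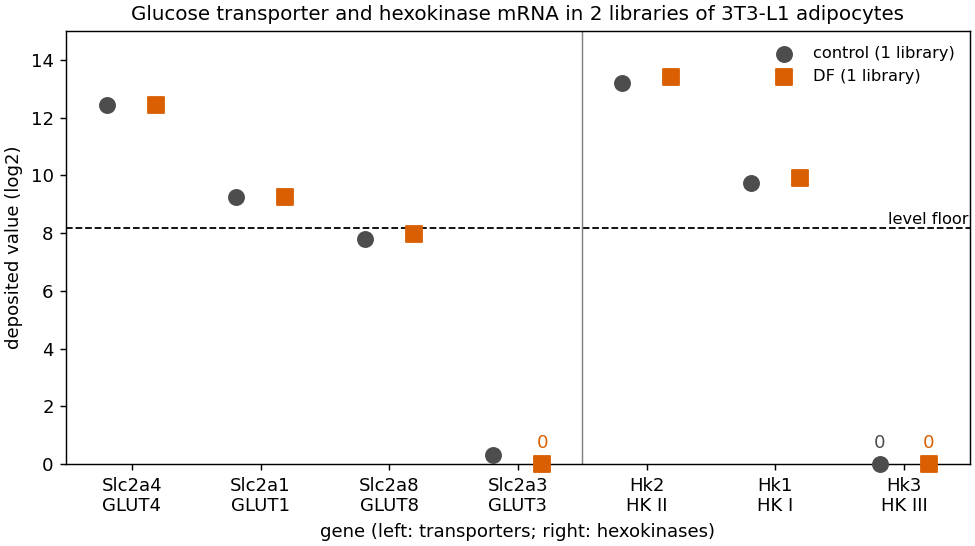
Deposited log2 values (y axis) of the 4 transporter genes (left) and 3 hexokinase genes (right) in the control library (circles) and the DF library (squares); 0 marks a gene listed at 0 and the dashed line the level floor of 8.18. The circle and square of each gene lie close together, and Hk3 and, with DF, Slc2a3 sit at 0.

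Slc2a4, the insulin-responsive transporter, had a level of 12.46 in the control library and 12.46 with DF, or 5633 and 5625 on the linear scale. It ranked 552nd among the genes of the control library and 553rd in the DF library. The difference, DF minus control, was -0.002 log2 units. Of 681 genes that had mean levels of 12 to 14 and were above 0 in both libraries, 0.441% differed by less than Slc2a4. Slc2a4 lies on chromosome 11, 69942539 to 69948188, on the minus strand (GENCODE vM21, GRCm38), with 11 exons in its longest coding transcript of 2524 nt, and no annotated gene overlaps it.

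Slc2a1, the basal transporter, had a level of 9.24 without DF and 9.27 with it, or 604.8 and 616 on the linear scale. The DF value was 1.02-fold the control value, a difference of 0.03 log2 units. In the same mean-level range of 8 to 10, 4.12% of 3620 genes differed by less. Slc2a4 exceeded Slc2a1 by 9.31-fold on the linear scale in the control and by 9.13-fold with DF. Slc2a1 lies on chromosome 4, 119108711 to 119137983, on the plus strand. The antisense genes Gm12867 and Gm12868 overlap it on the other strand, and the microRNA gene Mir1957a, listed at 0 in both libraries, on the same strand.

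Slc2a8 encodes GLUT8, a transporter that resides mainly on internal membranes. Its level was 7.78 in the control and 7.98 with DF, or 220.5 and 252.5 on the linear scale. Both values lay below the level floor of 8.18, the median of all non-zero values, so Slc2a8 was not among the genes counted. The DF value was 1.15-fold the control value. Among 2759 genes with a mean level of 6 to 8, 20.3% differed by less. Slc2a8 lies on chromosome 2, 32972990 to 32982083, on the minus strand.

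Slc2a3 encodes GLUT3, the high-affinity transporter of neurons and white blood cells. It stood at 0.32 in the control library, the lowest value above 0 there, and was listed at 0 with DF, so no fold is given. The control value was shared by 179 genes, of which 115 were listed at 0 with DF. The lowest value above 0 in the DF library was 2.13, so the bottoms of the scales are not alike. Slc2a3 lies on chromosome 6, 122727809 to 122801640, on the minus strand, where the pseudogene Gm4482 overlaps it on the same strand.

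Hk2 had a level of 13.22 without DF and 13.41 with it, or 9523 and 10853 on the linear scale. The DF value was the higher by 1.14-fold (0.19 log2 units), and the rank moved from 287 to 242. Of the 681 genes of like level, 41.7% differed by less than Hk2. Hk2 lies on chromosome 6, 82725025 to 82774454, on the minus strand, with 18 exons in a longest coding transcript of 5513 nt. The antisense gene Gm17034 overlaps it on the other strand.

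Hk1 had a level of 9.74 without DF and 9.90 with it, or 854.6 and 958.5 on the linear scale. The DF value was 1.12-fold the control value, a difference of 0.17 log2 units, and 26.4% of the 3620 genes of like level differed by less. The proportion between the isoforms was close in both libraries: the Hk2 linear value was 11.1 times that of Hk1 in the control and 11.3 times with DF. Hk1 spans chromosome 10, 62268855 to 62379908, on the minus strand, and has 18 annotated coding transcripts with 9 different ends. The antisense gene Hk1os on the other strand was at 0.32 in the control and listed at 0 with DF.

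Hk3, the hexokinase of white blood cells, was listed at 0 in both libraries. It lies on chromosome 13, 55005985 to 55021385, on the minus strand, where Unc5a on the other strand was also listed at 0 in both. Of the 24421 genes, 10815 were listed at 0 in both libraries. Because the depth is unknown, no limit of detection can be given for Hk3 or Slc2a3.

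Of the 7 members, 5 were above 0 in both libraries and 4 reached the level floor in at least 1 library. Of these 4, 0 differed by at least 1.5-fold, against 21.1% of the 6761 genes at the floor. With no floor, 0 of the 5 members above 0 in both libraries passed 1.5-fold, against 34.2% of all such genes. Past 2-fold, the share of all genes at the floor was 5.77%. Among genes at the floor, the share past 1.5-fold was 23.5% at a mean level of 8 to 10 (3547 genes), where Hk1 and Slc2a1 lie. The share was 14.1% at 10 to 12 and 11.5% at 12 to 14, where Slc2a4 and Hk2 lie. At 14 to 16 it was 12.2%. The 5 members above 0 in both libraries had a median difference of 0.17 log2 units, and 0.04 was the median over all 11744 such genes. For the 4 members at the floor the median was 0.10, against 0.01 over the 6760 genes at the floor and above 0 in both. Of the 5 members, the difference was above 0 in 4 and below 0 in Slc2a4. No share of all genes with a difference above 0 is given beside this count. With the median of all genes subtracted, the difference of Slc2a1 was -0.01.

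**Figure D2:**
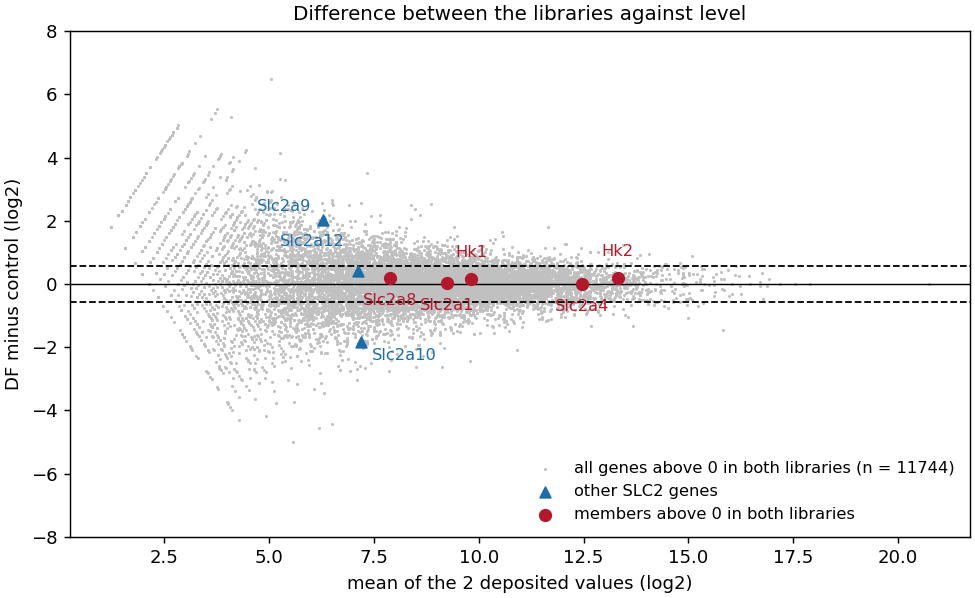
Difference between the libraries (DF minus control, log2, y axis) against the mean of both deposited values (log2, x axis) for the 11744 genes above 0 in both (grey), the 5 members above 0 in both (red circles) and 3 other SLC2 genes (blue triangles); dashed lines mark 1.5-fold. All 5 members lie between the dashed lines, whereas Slc2a9 and Slc2a10 lie outside them.

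Each family was dominated by 1 gene in both libraries. Slc2a4 made up 87.2% of the summed linear values of the 4 transporters in the control and 86.6% with DF, Slc2a1 made up 9.36% and 9.49%, and Slc2a8 3.41% and 3.89%. Hk2 made up 91.8% of the 3 hexokinases in the control and 91.9% with DF. The summed transporter value was 6460 in the control and 6493 with DF, a ratio of 1.01. The summed hexokinase value was 10377 and 11812, a ratio of 1.14, to which Hk2 contributed most. With all 12 listed SLC2 genes as the whole, the Slc2a4 share was 81.7% in each library.

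**Figure D3:**
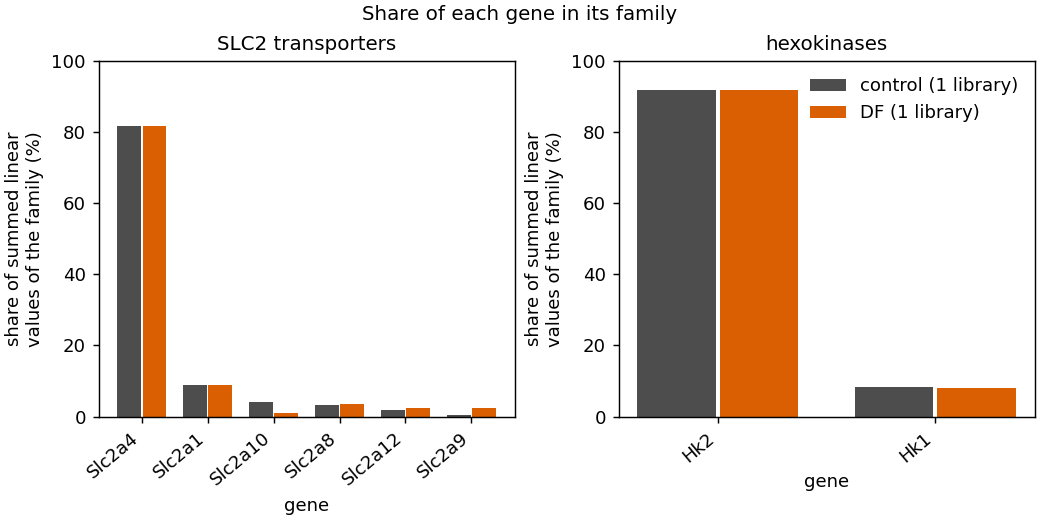
Share of each gene in the summed linear values of its family (y axis, percent) in the control library (grey) and the DF library (orange), for SLC2 transporters (left) and for the hexokinase members (right); genes under 0.1% in both libraries are not drawn. Slc2a4 (81.7% and 81.7%) and Hk2 (91.8% and 91.9%) hold most of their families.

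The deposited values carry no information on which start site was used, and promoter sequences are given as background. Whether promoter features relate to the levels of the members was not tested. RefSeq promoters of GRCm38.p6, from 250 bases before to 50 after the start, were matched for 5 of the 7 members. The 4 shown are Hk2, the most abundant member; Slc2a1, the basal transporter; Slc2a8, which is rich in CCAAT boxes; and Hk3, which was listed at 0. Each runs 5′ to 3′ on the strand of its gene, and capitals mark matches on either strand to ACGTG (the core of hypoxia response elements), GCGTG (its other form), CCAAT and GGGCGG (a GC box). Overlapping matches run together.
Hk2, chromosome 6, 82774405 to 82774704, minus strand: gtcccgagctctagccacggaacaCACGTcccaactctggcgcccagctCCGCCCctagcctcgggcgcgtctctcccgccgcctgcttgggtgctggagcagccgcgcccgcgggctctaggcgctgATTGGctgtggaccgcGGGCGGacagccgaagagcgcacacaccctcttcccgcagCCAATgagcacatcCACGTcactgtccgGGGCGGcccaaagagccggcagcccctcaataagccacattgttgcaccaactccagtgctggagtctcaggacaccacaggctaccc
Slc2a1, chromosome 4, 119108495 to 119108794, plus strand: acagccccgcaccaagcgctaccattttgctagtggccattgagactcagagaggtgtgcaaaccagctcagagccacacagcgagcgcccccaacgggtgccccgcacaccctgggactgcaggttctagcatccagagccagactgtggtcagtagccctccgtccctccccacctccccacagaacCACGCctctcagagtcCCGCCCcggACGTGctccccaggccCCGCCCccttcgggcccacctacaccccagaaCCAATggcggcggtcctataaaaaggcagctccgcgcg
Slc2a8, chromosome 2, 32982034 to 32982333, minus strand: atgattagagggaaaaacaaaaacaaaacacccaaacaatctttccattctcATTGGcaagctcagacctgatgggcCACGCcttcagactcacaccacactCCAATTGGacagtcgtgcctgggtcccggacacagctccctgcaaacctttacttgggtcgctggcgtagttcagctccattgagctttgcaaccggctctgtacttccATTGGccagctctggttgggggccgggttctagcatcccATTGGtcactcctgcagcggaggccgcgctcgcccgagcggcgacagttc
Hk3, chromosome 13, 55021336 to 55021635, minus strand: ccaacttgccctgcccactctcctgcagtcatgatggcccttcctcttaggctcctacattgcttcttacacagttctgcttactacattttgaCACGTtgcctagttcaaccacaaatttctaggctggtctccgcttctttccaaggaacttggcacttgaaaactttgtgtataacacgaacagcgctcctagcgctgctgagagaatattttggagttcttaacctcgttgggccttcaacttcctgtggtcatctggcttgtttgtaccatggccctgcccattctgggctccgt

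The Hk2 promoter held 2 matches to ACGTG, 2 to CCAAT and 3 to GGGCGG, and the Slc2a1 promoter held 1 match to ACGTG, 1 to GCGTG, 1 to CCAAT and 2 to GGGCGG. In the Slc2a8 promoter there were 5 matches to CCAAT, a pair of which overlap, and 1 to GCGTG. The Hk3 promoter held 1 match to ACGTG. Of 32851 RefSeq promoters of the same length, 19.6% held ACGTG, 32.4% GCGTG, 37.4% CCAAT and 35.7% GGGCGG on either strand. CACGTG, the E-box that contains ACGTG, was in none of the 6 promoters scanned, which belong to Slc2a1, Slc2a8, Hk1, Hk2 and Hk3, and in 7.15% of all. The MEF2 motif was in none of these 6 and in 3.69% of all. The promoters of Slc2a3 and Slc2a4 were not analysed here. The GC content was 67.3% for Hk2, 65.3% for Slc2a1, 55.7% for Slc2a8 and 49.0% for Hk3, against a median of 52.7% over all promoters. Hk1 has 2 promoters in the table, of 63.3% and 51.3% GC, and the first of these held 2 matches to ACGTG and 3 to GCGTG.

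The examined genes of hexokinase partners, regulators and related enzymes stayed within 1.5-fold. In the list of other hexokinases and their regulators, 0 of 5 examined genes passed 1.5-fold upwards and 0 downwards, against 10.2% higher and 10.9% lower over all genes at the floor. Their median difference was 0.11 log2 units. Hkdc1, a further hexokinase gene, was listed at 0 in both libraries, so it was not among the 5 examined. Vdac1 and Vdac2, channels of the outer mitochondrial membrane to which hexokinases I and II bind, were at 11.78 and 11.97, and at 12.35 and 12.44.

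None of the 8 other SLC2 genes reached the level floor. Slc2a10, which encodes GLUT10, was at 8.13 without DF, just under the floor, and 6.28 with it, a difference of -1.85. Slc2a12, which encodes GLUT12, was at 6.90 and 7.32. Slc2a9, which encodes the urate transporter GLUT9 and is named after its values were seen, was at 5.26 and 7.29. The remaining 5 (Slc2a2, Slc2a5, Slc2a6, Slc2a7 and Slc2a13) were listed at 0 in both libraries. Of the 4984 genes that were above 0 but below the floor in both libraries, 52% differed by at least 1.5-fold.

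Among genes of GLUT4 traffic and of the insulin signal to it that reached the floor, none passed 1.5-fold, against 10.2% of all genes at the floor that were higher and 10.9% that were lower. Below the floor, Aspscr1 of the traffic list and Pik3cb, Prkaa2, Grb10 and Grb14 of the signal list differed by more than 1.5-fold. Of all 4984 genes above 0 but below the floor in both libraries, 52% differed by at least 1.5-fold. In the list of GLUT4 vesicle proteins and tethers, 0 of 22 examined genes were higher and 0 lower; their median was -0.04 log2 units and their range -0.56 to 0.57. Rhoq, which encodes the small GTPase TC10, was at 12.69 and 13.00, and Rab14, a vesicle GTPase, at 12.36 and 12.26. Tbc1d4, which encodes AS160, the Akt substrate that holds GLUT4 vesicles back, was at 9.66 and 9.32. In the insulin signal list, 0 of 12 were past the limit in either direction, with a median of -0.09. Akt2, the Akt isoform that acts on GLUT4 traffic, was at 13.72 and 13.95, and Pik3r1, a regulatory subunit of phosphoinositide 3-kinase, at 12.73 and 12.40. Over all 6760 genes at the floor that were above 0 in both libraries, the median was 0.01.

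Among regulators of transporter and hexokinase genes, 1 of 17 examined was higher and 1 lower, against 10.2% and 10.9% of all genes at the floor. Mlxipl, which encodes the glucose-sensing factor ChREBP, had a level of 7.61 without DF and 8.28 with it, 1.59-fold higher. It reached the floor only through its DF value, and with the floor set on the mean of both libraries 0 regulators were higher. Usf1, an E-box binding factor, was at 11.04 and 10.26, 1.72-fold lower, and Usf2, its partner, was at 12.47 in the control with a difference of -0.48. Txnip, a glucose-induced inhibitor of glucose uptake, was the most abundant of the list at 15.42 and 15.24. Mef2a, a factor that binds the Slc2a4 promoter, was at 11.25 and 11.35. The median of the 17 was -0.05.

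Lactate and pyruvate carriers were among the related genes that passed the limit. In the list of other hexose and monocarboxylate transporters, 3 of the 8 genes at the floor passed the limit upwards and 0 downwards, with a median of 0.30. Slc16a3, which encodes the lactate exporter MCT4, had a level of 8.85 without DF and 10.05 with it, 2.28-fold higher. Slc16a1, which encodes the lactate transporter MCT1, was at 9.35 and 10.13, 1.71-fold higher, and Mpc1, a subunit of the mitochondrial pyruvate carrier, at 9.79 and 10.73, 1.92-fold higher. Mpc2, its partner subunit, was at 10.40 and 10.41. Bsg, which encodes basigin, the chaperone of both lactate transporters, was at 15.72 and 16.16. This count of 3 stands beside the 10.2% of all genes at the floor that were higher; the list is small and was chosen with earlier results known.

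In the list of the fates of glucose 6-phosphate, 3 of 18 examined were higher and 2 lower, near the 10.2% and 10.9% of all genes at the floor, and the median was 0.13. Pfkfb1, a kinase and phosphatase that sets the activator of phosphofructokinase, was at 8.47 and 9.56, 2.13-fold higher, and its relative Pfkfb4 was at 8.24 and 7.37, 1.82-fold lower; it reached the floor only through its control value, and with the floor set on the mean of both libraries 1 gene of the list was lower. Gyg, which encodes the glycogen primer glycogenin, was at 9.78 and 10.46, higher by 0.68 log2 units. The phosphofructokinase gene Pfkm was 1.58-fold lower (10.54 to 9.88), and the platelet-type gene Pfkp 1.53-fold higher (11.88 to 12.49). Pgls, of the pentose phosphate pathway, and Gys1, the glycogen synthase, were the most abundant, at 13.89 and 14.45 and at 13.18 and 13.23. Pfkm overlaps Senp1 on the other strand, which was at 9.38 and 8.91, and the strand setting of the counting is unknown. The same doubt holds for Pfkp, Pfkfb1, Gys1, Slc2a12, Vdac2 and Rhoq, each of which shares its locus with an opposite-strand coding gene. It also holds for Uck1 and Stard5, which are named below.

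**Figure D4:**
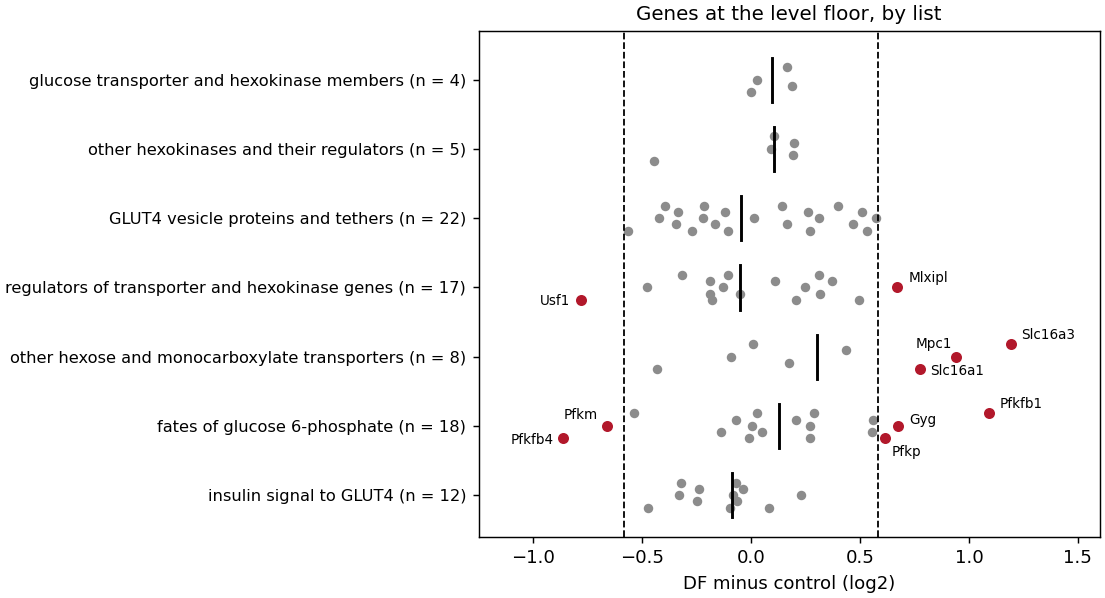
Difference between the libraries (DF minus control, log2, x axis) for each examined gene of the members (4 genes) and of 6 lists of related genes (y axis); black bars are medians, dashed lines mark 1.5-fold and red points lie past them. The members and the GLUT4 vesicle and insulin signal lists lie between the lines, and Slc16a3 stands farthest to the right.

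The genes nearest to each member in the plane of both log2 values (2 libraries, Euclidean distance) were Fam214a (0.01) and Stard5 (0.02) for Slc2a1, and Fkbp9 (0.03) and Ftl1 (0.04) for Slc2a4. For Slc2a8 they were Tnfrsf10b (0.01) and Ube2o (0.01), for Hk1 Stt3b (0.01) and Zfx (0.02), and for Hk2 Uck1 (0.06) and Tm9sf3 (0.06). With 2 libraries this means only that the values lie close together.

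The label of adipocytes was checked against markers. All 10 markers of mature adipocytes were above the floor in both libraries, with summed linear values of 553252 in the control and 635849 with DF. Of these 10, Cidec (1.59-fold) and Cd36 (1.54-fold) were higher by at least 1.5-fold and 0 lower, against 10.2% and 10.9% of all genes at the floor. Of 8 markers of preadipocytes and fibroblasts, 7 were above 0 in both, and their sum was 133297 in the control and 61943 with DF, with Ly6a 3.01-fold, Dlk1 2.73-fold, Pdgfra 2.54-fold and Col1a1 1.58-fold lower. These are 4 of the 6 at the floor, against 10.9% of all genes at the floor. In bulk RNA, fewer cells of a type and less RNA per cell cannot be told apart, and the part of this shift in the values of the members was not tested. Macrophage, neutrophil and endothelial markers stayed below the floor in both libraries, with highest values of 4.33 and 4.88, 5.69 and 7.13, and 6.49 and 2.83. Adgre1, Fcgr1 and Mrc1 (macrophage), Mpo (neutrophil) and Kdr, Tek, Cldn5 and Emcn (endothelial) were listed at 0 in both. Of 8 skeletal muscle markers only Des reached the floor (9.79 and 10.43). It was 1.55-fold higher, past the limit that 10.2% of all genes at the floor passed upwards. Below the floor, the Acta1 values were 1.00 without DF and 6.54 with it. Ckm went from a listed 0 to 2.13, the lowest DF value above 0, and Tnnt3 from 2.32 to a listed 0. Ckm and Tnnt3 are named after their values were seen. Myod1, Myog, Myh1 and Myh4 were listed at 0 in both.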

How the data were processed

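Messenger RNA of 2 libraries of 3T3-L1 adipocytes (1 control, 1 DF) was sequenced as single 75 nt reads, per the labels' protocols, from Lexogen libraries of transcript ends (500 ng of total RNA each). The authors deposited 1 log2 value per gene symbol and library. Bowtie2, edgeR and mm10 are named in the submitters' processing notes; versions, counter, annotation, strand setting and normalization were not given in the sources used. From the values, the highest 140 sorted values (13.98 and above) are identical in both files, and 97.9% of 12337 ranks lie within 0.1 log2 units, as after quantile normalization. Such scaling removes differences in total output. All linear values under 1000 lie within 0.001 of a multiple of 0.125, so other libraries, not analysed here, may have entered the scaling. Depth is unknown.

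Differences are DF minus control, with no pseudocount and no test. Genes at or above 8.18 (the median of the non-zero values) in at least 1 library were examined, and those past 1.5-fold counted. The members and the 7 lists of related genes were chosen with earlier results of these data known. Named genes are the members, the 2 most abundant genes of each list, up to 4 genes counted, and the 2 nearest genes of each member; Tbc1d4, Mef2a, Pfkp, Hkdc1, Slc2a9 and the SLC2 genes listed at 0 were added after their values were seen. A few genes of the lists are not reported here and do not enter the list counts. Positions are from GENCODE vM21 (GRCm38, the assembly of mm10), and promoters from RefSeq (GRCm38.p6). Python 3.11.15, numpy 2.4.6 and pandas 2.3.3 were used. Alternatives were the floor (for the lists, a floor on the mean was added after seeing the data), the size limit, the scaling and pseudocounts of 1 and 32 on the linear scale.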

Additional observations from a re-analysis of the deposited data

How the results depend on the processing

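Of 97 alternative values computed, 79 stayed close to the main value and 18 moved. Some of these outcomes were fixed in advance, as given below. Among the member differences, all within the limit, the sign changed for Slc2a1 (-0.01) with the median of all genes subtracted. No member passed 1.5-fold under any floor, limit, scaling or pseudocount of 32 that was tried. A stricter floor or a 2-fold limit could not have added to a count of 0. A pseudocount could not either, because it only draws a difference towards 0. The member differences moved by under 0.1 log2 units under both rescalings and both pseudocounts. For the rescalings this was fixed in advance, because each shifts all differences by 1 constant (0.037 and 1.6e-04 log2 units). Shifts this small could not have taken a member past 1.5-fold, as the largest member difference was 0.20 log2 units (Slc2a8). The pseudocounts also left little room to move, as the lowest linear value among members above 0 in both libraries was 220.5. As within-library percentiles of genes above 0, the differences were -1.44 points for Slc2a1 and -0.30 for Slc2a8, opposite in sign to the log2 differences; fewer genes are above 0 in the DF library (12337 against 13013), which lowers such percentiles. The Slc2a4 share was 81.7% in both libraries with all SLC2 genes in the whole; the Hk2 share over a wider set of hexokinase genes was not run. Without a floor, 1 of 3 other SLC2 genes was higher and 1 lower, and 1 of 26 GLUT4 vesicle genes was lower. Higher were 3 of 21 regulators (1 lower) and 5 of 23 genes of glucose 6-phosphate fates (3 lower). In the insulin signal list 3 of 19 were higher and 1 lower. Over all 11744 genes above 0 in both libraries, 34.2% passed 1.5-fold in either direction. At 2-fold, 0 of 17 regulators were higher and 0 lower, and 1 of 8 other transporters was higher. Of 18 genes of glucose 6-phosphate fates, 1 was higher and 0 lower. Over all genes at the floor, 5.77% passed 2-fold in either direction. With the floor on the mean of both libraries, an alternative added after seeing the data, 0 regulators were higher and 1 gene of glucose 6-phosphate fates was lower. No paired analysis was possible because each group holds 1 library, and for the same reason no replicate could be left out. Unknown depth limits every value near 0.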

Other observations

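Several genes of the same lists that stayed below the level floor in both libraries differed more than the members did. They are named after their values were seen, and low values vary widely. Of all 4984 genes above 0 but below the floor in both libraries, 52% differed by at least 1.5-fold, and most members lie at higher levels. Gfpt2, an enzyme of the hexosamine pathway, stood at 5.46 without DF and 2.13 with it, while its abundant relative Gfpt1 was at 12.20 and 12.06. Ppara, the nuclear receptor of fatty acid oxidation, was at 6.10 and 7.66, and Mlxip, a glucose-sensing relative of Mlxipl, at 7.34 and 8.16. Slc5a2, the sodium-coupled glucose transporter of the kidney, was at 5.85 in the control and listed at 0 with DF, so it is not among the 4984 genes. Over the whole series, 1269 genes were above 0 in the control library only. Aspscr1, which encodes TUG, a tether of GLUT4 vesicles, was at 6.60 and 5.72. Grb14, an inhibitor of the insulin receptor, was at 5.80 and 4.02, whereas its relative Grb10 was at 2.32 and 4.42.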
